A study of Mus musculus with 4 samples.

Results

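Hepatic triglyceride is built from glycerol-3-phosphate in a short series of steps. From that route and the neighbouring monoacylglycerol route, 10 genes were followed in the livers of *Usp21* KO and WT mice. They were taken by gene symbol from the 35739 genes of the abundance table, and all 10 were present, each with a single row. They comprised the glycerol-3-phosphate acyltransferases *Gpam* and *Gpat4*, the acylglycerol-phosphate acyltransferases *Agpat2* and *Agpat3*, the lipins *Lpin1*, *Lpin2* and *Lpin3*, the monoacylglycerol acyltransferase *Mogat1*, and the diacylglycerol acyltransferases *Dgat1* and *Dgat2*. Liver RNA was sequenced from 2 WT littermates, numbered 2 and 3, and from 2 animals without *Usp21*, numbered 1 and 3, with 1 library per mouse. The KO mice carried a constitutive deletion of exons 3 and 4 of *Usp21*, a ubiquitin-specific protease. The gene was targeted in 129/Sv ES cells, and the exons were removed later by crossing floxed mice with Cre-expressing mice. The WT animals were their littermates on a mixed B6 and 129/Sv background. Mice of both genotypes were 10 to 11 weeks old and were kept on a normal diet with a light and dark cycle. The time of day and the feeding state at tissue collection were not given in the sources used here. The targeted gene *Usp21* measured 4.07 and 6.29 TPM in the WT livers against 1.64 and 2.93 TPM in the KO livers, lower in both KO livers but not at 0 (log2 fold change -0.92 ± 0.33 SE, limma adjusted p = 0.464).

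In the glycerol phosphate pathway, GPAT enzymes add the first fatty acid and make lysophosphatidic acid, AGPAT enzymes add the next to give phosphatidic acid, and lipins remove the phosphate to give diacylglycerol, which DGAT enzymes acylate to triglyceride. MGAT enzymes such as that encoded by *Mogat1* reach diacylglycerol by a different route, from monoacylglycerol. Lipins move between the cytosol, the endoplasmic reticulum and the nucleus, where lipin 1 can also act with PGC-1α and PPAR-alpha on genes of fatty acid oxidation. In liver, *Lpin1* is known as a gene induced by fasting and glucocorticoids, while lipin 2 protein is abundant in hepatocytes.

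*Lpin1* (ENSMUSG00000020593) is a reverse-strand gene of chromosome 12 (16535669 to 16610966 in GRCm38), and its longest coding transcript has 21 exons and 924 codons. *Lpin2* (ENSMUSG00000024052) lies on the forward strand of chromosome 17, from 71182560 to 71249817, with 931 codons, and *Lpin3* (ENSMUSG00000027412) on the forward strand of chromosome 2, from 160880670 to 160906002, with 858 codons. The RefSeq promoters of *Lpin1* and of *Lpin2* are shown because these were the members with higher levels in both KO libraries. Each window holds 250 bases before and 50 bases after an annotated start, read 5′ to 3′ on the gene's strand, at chr12:16610917-16611216 for *Lpin1* and chr17:71183282-71183581 for the most upstream of the 3 annotated starts of *Lpin2* (GRCm38.p6). Capitals mark matches, on either strand, to the motifs searched.
Lpin1: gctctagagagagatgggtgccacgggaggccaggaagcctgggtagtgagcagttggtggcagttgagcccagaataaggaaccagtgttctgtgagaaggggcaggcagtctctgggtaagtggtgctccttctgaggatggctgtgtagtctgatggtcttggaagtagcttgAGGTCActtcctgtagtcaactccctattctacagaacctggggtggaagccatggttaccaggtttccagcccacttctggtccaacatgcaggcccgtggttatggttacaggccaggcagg
Lpin2: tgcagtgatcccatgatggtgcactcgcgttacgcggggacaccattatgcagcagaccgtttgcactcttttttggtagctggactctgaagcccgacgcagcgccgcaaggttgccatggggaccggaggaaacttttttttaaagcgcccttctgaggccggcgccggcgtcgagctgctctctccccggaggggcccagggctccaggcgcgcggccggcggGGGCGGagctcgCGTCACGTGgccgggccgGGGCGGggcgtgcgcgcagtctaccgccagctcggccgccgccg

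The motifs searched were the E-box CACGTG, the cyclic AMP response element TGACGTCA with the shorter core TGACG, the D-box TTATGTAA, the sterol element TCACNCCAC, and also the hexamer AGGTCA bound by nuclear receptors, the Sp1 box GGGCGG, the CCAAT box and the TATA box TATAAA. In the *Lpin1* window the single match was an AGGTCA that began 74 bases before the start, and 16.3% of the 32851 RefSeq promoters hold this hexamer. The *Lpin2* window held an E-box that began 9 bases before the start and overlapped a TGACG on the opposite strand, together with 2 Sp1 boxes. An E-box was found in 7.15% of all promoters and an Sp1 box in 35.7%. Of 11 promoter windows that matched members (*Lpin1*, *Lpin2*, *Lpin3*, *Gpam*, *Agpat2*, *Agpat3* and *Mogat1*), 2 held an E-box, the other one in *Lpin3*. No window held the D-box, the full cyclic AMP element, the sterol element or the TATA box in these letters. Over all promoters their shares were 0.938%, 1.79%, 1.24% and 13.6%, in that order. With 11 windows, the absence of motifs this rare says little about the members. The abundance values do not tell which start was used.

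Abundance is given as TPM, the share of transcripts that a gene takes after correction for transcript length, so that levels can be set side by side between genes. A separate table of normalised read counts from the same libraries listed 8 of the 10 members at 0 throughout, as it did 428 of the 682 genes that reached 100 TPM in every liver, so it gave no usable value for them. *Dgat2* had the highest mean over the 4 libraries (160 TPM), followed by *Agpat2* (128 TPM), *Agpat3* (78.1 TPM), *Gpat4* (49.2 TPM), *Lpin2* (38.7 TPM), *Lpin1* (35.2 TPM), *Gpam* (20.0 TPM) and *Dgat1* (10.5 TPM). *Lpin3* (0.728 TPM) and *Mogat1* (0.640 TPM) were at the bottom, with overlapping ranges. In the WT libraries, the ranges of *Gpam* and *Lpin2* overlapped, as did those of *Lpin1* with *Gpam* and with *Dgat1*, so these neighbours were not separated by more than the spread between mice. In the KO libraries *Lpin1* lay within or above the ranges of *Lpin2* and *Gpat4*, and *Dgat2* and *Agpat2* were close to each other.

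**Figure D1:**
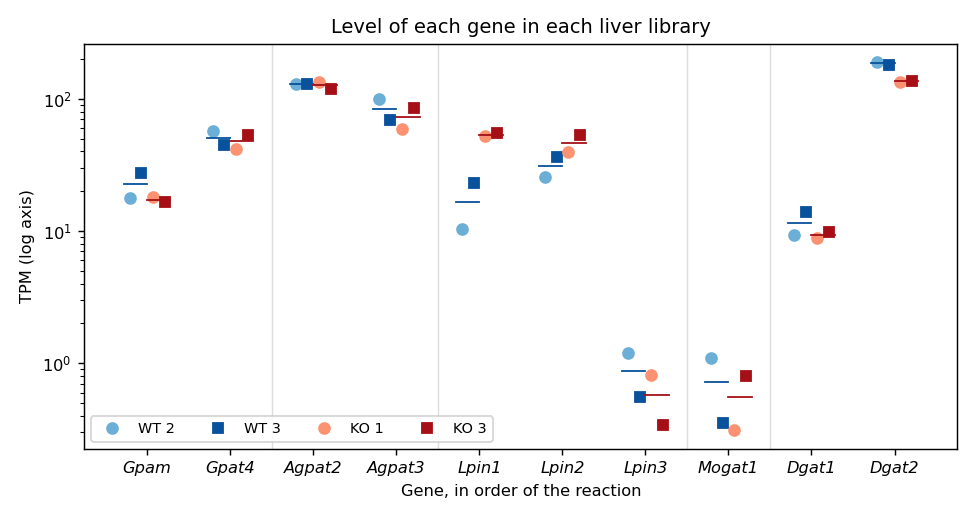
TPM on a log axis for each of the 10 genes in WT replicates 2 and 3 and *Usp21* KO replicates 1 and 3, with 1 point per library and a short line at each genotype's mean. The points of *Lpin1* lie at 10.3 and 23.1 TPM for WT and at 52.5 and 54.8 TPM for KO, whereas *Lpin3* and *Mogat1* stayed near or under 1 TPM.

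Differences between genotypes were tested with limma on log2(TPM + 1) over 9581 genes that averaged 1 TPM or more, two-sided, with Benjamini-Hochberg adjustment, and log2 fold changes are KO minus WT on that scale. Of the members, 8 were tested, and *Lpin3* and *Mogat1* were fitted without the filter. An adjusted p under 0.05 was reached by 0 of the 8 members, compared with 0.0835% of all genes tested. An unadjusted p under 0.05 was found for 1 member higher in KO (*Lpin1*), compared with 8.45% of all genes, and for 1 member lower in KO (*Dgat2*), compared with 2.04% of all genes. Both KO libraries lay above both WT libraries for 2 of the 8 members, against 34.4% of all genes, and below them for 1 of the 8, against 10.9% of all genes. At least 2-fold higher was 1 member (2.59% of all genes), and at least 2-fold lower were 0 members (1.10% of all genes). The median log2 fold change of the 8 members was -0.15, with 2 higher and 6 lower, whereas the median of all tested genes was 0.15 and 66.7% of them were higher in KO. When each library was scaled to an equal upper quartile, the median of all tested genes moved to 0.04 and 54.0% of them were higher in KO. Exact permutation of a single value over 2 against 2 libraries cannot give a p below 0.333.

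Of the 3 lipins, *Lpin1* and *Lpin2* had higher values in both KO livers and *Lpin3* did not, and the ratio of *Lpin1* was the largest among the 10 genes. *Lpin1*, which the study also shortlisted from these same libraries, measured 10.3 TPM in WT replicate 2, 23.1 TPM in WT replicate 3, 52.5 TPM in KO replicate 1 and 54.8 TPM in KO replicate 3. Both KO values were more than double the higher WT value, and the KO pair was much closer together than the WT pair. The means were 16.7 ± 9.03 TPM in WT and 53.6 ± 1.63 TPM in KO (SD, n = 2 per genotype), a ratio of 3.21. This gave a log2 fold change of 1.73 ± 0.37 (SE), with a 95% interval of 0.82 to 2.64 (limma adjusted p = 0.432, unadjusted p = 0.00389), or 1.58 above the median of all tested genes. Leaving out WT replicate 2 gave 1.18 and leaving out WT replicate 3 gave 2.27, so its size depended on which WT mouse was kept. Over the alternatives that gave a value, the limma adjusted p for *Lpin1* ranged from 0.257 to 0.710, and when the spread of each gene was estimated from that gene alone the unadjusted p was 0.0871. Because its selection by the study used these libraries, its direction here is not independent of that choice.

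*Lpin2*, the other lipin with a clear hepatic level, stood at 25.8 and 36.5 TPM in WT livers and at 39.3 and 53.1 TPM in KO livers. Both KO values exceeded both WT values, though KO replicate 1 was above WT replicate 3 by a small margin. The fold change on the log2 scale was 0.56 ± 0.25 (SE), with a 95% interval of -0.07 to 1.19 (limma adjusted p = 0.493), and leaving out WT replicate 2 gave 0.32, KO replicate 3 0.35. After upper quartile scaling the values were 26.9 and 38.3 in WT and 36.0 and 52.7 in KO, so the genotypes overlapped, and the log2 fold change was 0.43. *Lpin3*, the lipin of lowest hepatic level, showed 1.20 and 0.556 TPM for WT and 0.817 and 0.343 TPM for KO, with overlapping groups and a log2 fold change of -0.24 (SE 0.28). Among 31-base stretches of the *Lpin1* transcripts, 0% occurred in another annotated gene on either strand, and the share was 0.649% for *Lpin2* and 0.188% for *Lpin3*.

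Because TPM is corrected for length, the lipins were added within each library. The sum reached 37.3 and 60.2 TPM in the WT livers against 92.6 and 108 TPM in the KO livers, with no overlap. The KO mean (100 ± 11.0 TPM, SD) was 2.06 times the WT mean (48.7 ± 16.2 TPM, SD, n = 2 per genotype), with p = 0.333 in the exact permutation test, the smallest possible. *Lpin1* made up 27.7% and 38.4% of the lipin sum in WT and 56.7% and 50.6% in KO. *Lpin2* was thus the leading lipin message in both WT livers, and *Lpin1* exceeded it in both KO livers. The ratio of *Lpin1* to *Lpin2* was 0.400 and 0.632 in WT and 1.34 and 1.03 in KO (p = 0.333, exact permutation). This ratio and the shares do not depend on how the libraries were scaled. In all, 14 sums, shares and ratios of members were computed, and the adjusted p of those 9 with non-overlapping groups was 0.519 (Benjamini-Hochberg over the 14 exact permutation tests).

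**Figure D2:**
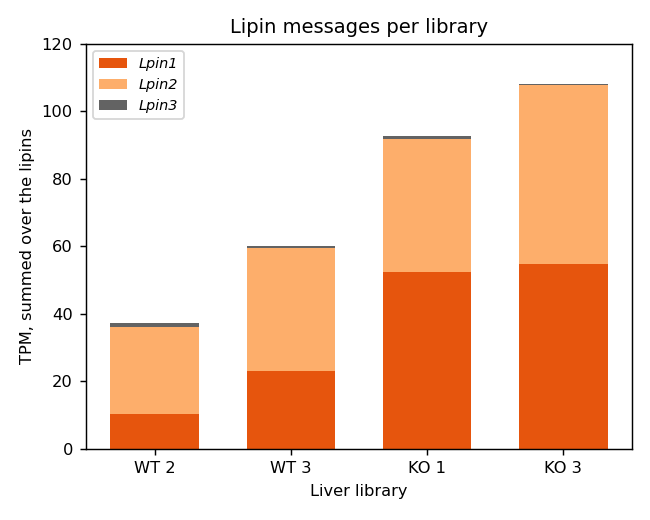
Stacked bars of the TPM of *Lpin1*, *Lpin2* and *Lpin3* in each liver library, starting at 0. The bars reach 37.3 and 60.2 TPM for WT and 92.6 and 108 TPM for KO, and *Lpin1* took 27.7% and 38.4% of it in WT and 56.7% and 50.6% in KO.

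At the last step of the pathway the difference ran the other way. *Dgat2* (ENSMUSG00000030747, chromosome 7, 99153658 to 99182719, reverse strand), the enzyme associated with storage of newly made fatty acids, measured 188 and 181 TPM in the WT livers against 134 and 136 TPM in the KO livers. The libraries of each genotype were within a few TPM of each other, and the genotypes were well separated. The means were 185 ± 4.90 TPM in WT and 135 ± 1.15 TPM in KO (SD, n = 2 per genotype), a ratio of 0.731. The fold change on the log2 scale was -0.45 ± 0.15 (SE), with a 95% interval of -0.83 to -0.06 (limma adjusted p = 0.464, unadjusted p = 0.0296). Leaving out any single library kept it between -0.48 and -0.42, the narrowest such range among the members, although the unadjusted limma p then lay between 0.0610 and 0.118. With upper quartile scaling it was -0.58.

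*Dgat1* (ENSMUSG00000022555, chromosome 15, 76502015 to 76511953, reverse strand), which belongs to a protein family unrelated to that of *Dgat2*, stood at 9.28 and 13.9 TPM in WT livers and at 8.89 and 9.81 TPM in KO livers. The WT and KO values overlapped, and the log2 fold change of -0.26 (SE 0.25) became 0.01 without WT replicate 3. The sum of both DGAT genes came to 198 and 195 TPM for WT and 143 and 146 TPM for KO, a ratio of means of 0.736 (p = 0.333, exact permutation). *Dgat2* was the more abundant in every library, by 13.1- to 20.3-fold. *Mogat1* (ENSMUSG00000012187, chromosome 1, 78510991 to 78538173, forward strand) measured 1.10 and 0.351 TPM in the WT livers against 0.311 and 0.795 TPM in the KO livers, so its genotypes overlapped (log2 fold change -0.14 ± 0.30 SE). For *Mogat1*, 11.2% of 31-base stretches also occurred in the overlapping gene BC035947 on the opposite strand. The strand setting was not given, and how far reads of that gene entered the *Mogat1* value was not measured.

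**Figure D3:**
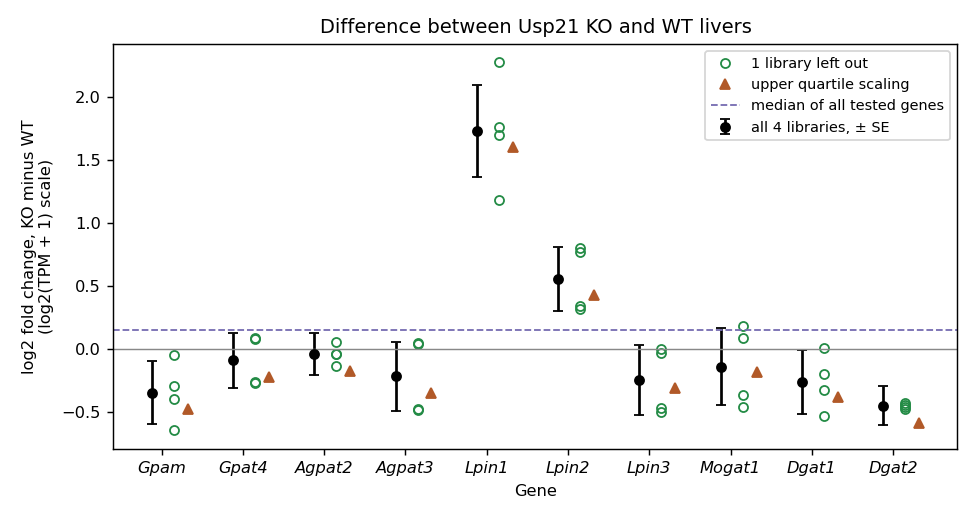
log2 fold change (KO minus WT, log2(TPM + 1) scale) of each gene with all 4 libraries (black, ± standard error from limma), with 1 library left out (open circles) and with upper quartile scaling (triangles), beside the median of all tested genes (dashed line, 0.15). *Lpin1* (1.73) and *Lpin2* (0.56) stayed above 0 and *Dgat2* (-0.45) and *Gpam* (-0.34) below 0 in all of these fits, while *Gpat4*, *Agpat2*, *Agpat3*, *Lpin3*, *Mogat1* and *Dgat1* crossed 0 in at least 1 of them.

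None of the GPAT and AGPAT genes separated the genotypes in TPM. *Gpam* (ENSMUSG00000024978, chromosome 19, 55067268 to 55127238, reverse strand), the GPAT of the mitochondrial outer membrane and a known target of SREBP-1c, stood at 17.9 and 27.5 TPM in WT livers and at 17.9 and 16.7 TPM in KO livers. WT replicate 3 stood above the other libraries, which were nearly level. The fold change on the log2 scale was -0.34 ± 0.25 (SE), with a 95% interval of -0.97 to 0.28 (limma adjusted p = 0.621), and it was -0.04 without WT replicate 3. *Gpat4* (ENSMUSG00000031545, chromosome 8, 23171265 to 23208346, reverse strand), a GPAT of the endoplasmic reticulum, showed 57.1 and 44.4 TPM for WT and 42.0 and 53.4 TPM for KO. Its values interleaved, with a log2 fold change of -0.09 (SE 0.22, 95% interval -0.62 to 0.45). *Gpat4* was the more abundant GPAT in every library, and *Gpam* made up 23.8% and 38.3% of their sum in WT and 29.9% and 23.8% in KO.

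*Agpat2* (ENSMUSG00000026922, chromosome 2, 26593057 to 26604417, reverse strand), whose loss causes lipodystrophy, measured 129 TPM in both WT livers and 134 and 118 TPM in the KO livers. The WT values lay between the KO values, and the 95% interval of its log2 fold change (-0.04) was -0.44 to 0.37. Of its 31-base stretches, 1.56% also occurred in *Egfl7*, which overlaps it on the opposite strand. In the upper quartile scaling both KO values (123 and 117) were below both WT values (135 and 136). *Agpat3* (ENSMUSG00000001211, chromosome 10, 78269178 to 78352489, reverse strand), another member of this acyltransferase family, measured 99.0 and 68.9 TPM in the WT livers against 58.9 and 85.6 TPM in the KO livers, which overlapped (log2 fold change -0.21 ± 0.27 SE, 95% interval -0.89 to 0.46). The sum of the *Agpat2* and *Agpat3* values stood at 228 and 198 TPM in WT livers and at 193 and 204 TPM in KO livers. With upper quartile scaling, 1 of the 8 tested members (*Lpin1*) lay higher in both KO livers than in either WT liver, against 24.5% of all genes, and 3 (*Gpam*, *Agpat2* and *Dgat2*) lay lower in both, against 18.6% of all genes.

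Set against each other within a library, the steps stood in other proportions in the KO livers than in the WT livers. Summed lipin TPM was 0.189 and 0.308 of summed DGAT TPM in WT and 0.646 and 0.742 of it in KO. The GPAT sum, of which *Gpat4* is the larger part, came to 74.9 and 72.0 TPM in the WT livers and to 59.9 and 70.1 TPM in the KO livers, both below the WT values, KO replicate 3 by a small margin (p = 0.333, exact permutation). Relative to it, the lipin sum was 0.498 and 0.836 in WT and 1.54 in both KO libraries. Neither ratio overlapped between genotypes (p = 0.333 each, exact permutation). That outcome was fixed by the sums, since the lipin sum was higher and the DGAT and GPAT sums lower in both KO livers. The ratios therefore add no separate evidence to the sums. In contrast, the 10 members together held overlapping shares of the transcripts, with sums of 539 and 526 TPM in the WT livers and of 489 and 529 TPM in the KO livers.

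**Figure D4:**
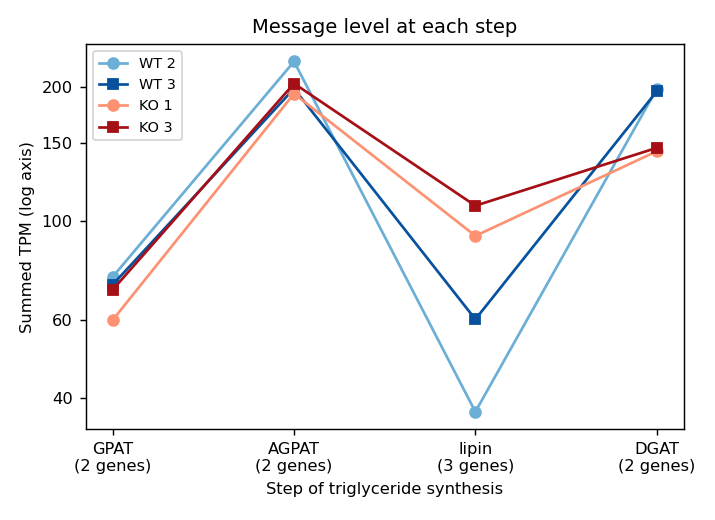
Summed TPM (log axis) of the genes at each step of triglyceride synthesis, with 1 line per liver library. The lines run close together at the AGPAT step (193 to 228 TPM), the KO lines lie higher at the lipin step (92.6 and 108 TPM against 37.3 and 60.2 TPM) and lower at the DGAT step (143 and 146 TPM against 198 and 195 TPM).

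Related genes were grouped in lists, and the counts below refer to limma on all 9581 genes. Among 14 tested genes that also serve glycerolipid synthesis, 8 had a higher and 6 a lower mean in KO livers (66.7% of all tested genes were higher), and their median difference on the log2 scale was 0.12, beside 0.15 for all genes. Of these, 1 had an unadjusted p under 0.05 and lay lower in KO (2.04% of all genes), the phosphatidate phosphatase family gene *Plpp2*. It measured 13.0 and 15.4 TPM in the WT livers against 8.59 and 8.43 TPM in the KO livers (log2 fold change -0.67 ± 0.20 SE, limma adjusted p = 0.464). At the upper end were *Agpat5* (0.47) and *Acsl4* (0.45), an acyl-CoA synthetase, and the next lowest value was that of *Plpp3* (-0.26). *Gpat3*, the other GPAT of the endoplasmic reticulum, had at most 1.29 TPM, and *Mogat2*, the intestinal MGAT, at most 0.241 TPM.

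The genes that act on lipins were mixed, with 3 of 7 tested genes higher (66.7% of all genes) and a median of -0.01. *Ctdnep1* and *Cnep1r1*, the catalytic and regulatory subunits of the phosphatase that activates lipins, had log2 fold changes of -0.01 and -0.09 with overlapping groups. *Srebf1*, which encodes the lipogenic factor SREBP-1, measured 58.1 and 64.3 TPM in the WT livers against 27.3 and 20.7 TPM in the KO livers (log2 fold change -1.32 ± 0.20 SE, limma adjusted p = 0.242, unadjusted p = 0.000808). Both KO values were under the lower WT value. The next lowest was *Srebf2* (-0.27), which encodes the cholesterogenic factor SREBP-2. At the upper end were *Ppargc1a* (0.80), which encodes PGC-1α, and *Nr3c1* (0.42), the glucocorticoid receptor. The level of *Ppargc1a* was low, at 0.681 and 0.482 TPM in WT livers against 2.43 and 1.19 TPM in KO livers (limma adjusted p = 0.477). Of the 10 lipogenic partners of *Gpam* and *Dgat2*, 4 were higher (66.7% of all genes) and 6 lower. Their median was -0.13, beside 0.15 for all genes. Without overlap of the genotypes, 0 lay higher in KO (34.4% of all genes) and 2 lower (10.9% of all genes). The lowest were *Thrsp* (-2.27) and *Srebf1*, and the highest were *Scd1* (0.76), a fatty acid desaturase, and *Mlxipl* (0.55), which encodes the carbohydrate response factor ChREBP. *Thrsp* had 75.0 and 611 TPM in WT, so WT replicate 3, which also had the highest *Gpam* and *Dgat1*, stood far above WT replicate 2.

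Most fasting genes had higher means in KO, as *Lpin1* did, with 10 of 11 tested genes higher (66.7% of all genes), 7 of them without overlap of the genotypes (34.4% of all genes), and a median difference of 0.79 on the log2 scale. *G6pc*, the last enzyme of gluconeogenesis, stood at 22.4 and 31.6 TPM in WT livers and at 56.4 and 173 TPM in KO livers (log2 fold change 1.85), and *Igfbp1*, a secreted binding protein of insulin-like growth factors, at 6.28 and 18.4 TPM in WT livers against 21.5 and 42.3 TPM in KO livers (1.39). *Tat*, a tyrosine-degrading enzyme that is also among the hepatocyte markers, had a log2 fold change of 0.79. The lowest values of the list were those of *Cebpb* (-0.18) and *Creb3l3* (0.09). Of the 11 genes, 5 had an unadjusted p under 0.05 with higher values in KO (8.45% of all genes), and 0 had an adjusted one. In the clock list, 5 of 11 tested genes were higher (66.7% of all genes) and 6 lower, from -3.08 for *Dbp* to 2.25 for *Arntl*, with *Ciart* at -2.42 and *Nfil3* at 1.69. Without overlap of the genotypes, 3 clock genes lay higher in KO (34.4% of all genes) and 6 lower (10.9% of all genes). An unadjusted limma p under 0.05 was found for 3 higher (8.45% of all genes) and 5 lower (2.04% of all genes). *Dbp*, a clock output factor, was the single gene of these lists that passed the test (limma adjusted p = 0.0193), and it fell from 56.8 and 41.3 TPM in the WT livers to 4.73 and 4.97 TPM in the KO livers. With any 1 library left out, 0 of the 9581 genes had a limma adjusted p under 0.05, *Dbp* included, while 542 to 1188 genes had an unadjusted p under 0.05. These lists were drawn up with earlier results of the same libraries known, and the part of feeding state or time of day in the *Lpin1* difference was not tested.

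**Figure D5:**
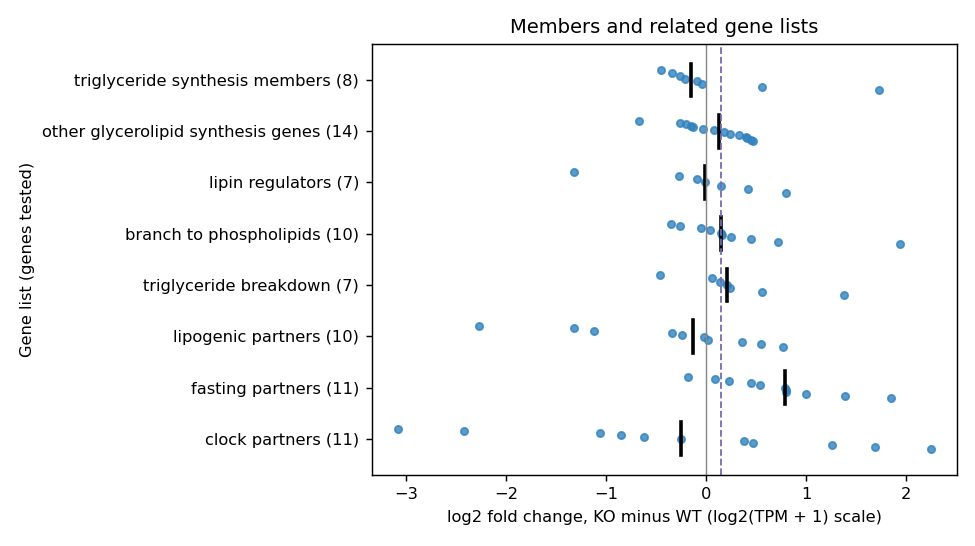
log2 fold change (KO minus WT, log2(TPM + 1) scale) of each tested gene in the members and 7 related lists, with the number of genes tested in brackets, the list median as a black bar and the median of all tested genes (0.15) as a dashed line. The medians lie at -0.15 for the members and 0.79 for the fasting list, and clock genes spread from -3.08 to 2.25.

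In whole liver, fewer cells of a type and less RNA per cell cannot be told apart. All 8 hepatocyte markers were detected, 2 with a higher and 6 with a lower mean in KO, and they summed to 96822 and 76512 TPM for WT and 78414 and 67823 TPM for KO. *Lpin1* is also made by fat and skeletal muscle. Of the 6 adipocyte markers, *Plin1*, *Lep* and *Retn* were at 0 in every library and *Adipoq* reached at most 0.224 TPM, while *Fabp4*, also a gene of endothelium and macrophages, made up most of the list's sum (5.05 and 9.77 TPM in WT livers against 15.4 and 10.7 TPM in KO livers). Of the 6 skeletal muscle markers, 4 including *Acta1* and *Ckm* were at 0 throughout, and the list's sum was at most 1.94 TPM. Summed markers of Kupffer cells (50.3 to 132 TPM), sinusoidal endothelium (34.6 to 53.8 TPM) and red blood cells (719 to 911 TPM) overlapped between genotypes. Those of stellate cells (52.9 and 44.6 TPM in WT livers against 82.9 and 62.2 TPM in KO livers) were higher in both KO libraries. So were those of cholangiocytes (14.6 and 15.9 TPM in WT livers against 37.9 and 24.5 TPM in KO livers). The stellate sum came mostly from *Dcn* (42.6 and 34.1 TPM in WT livers against 62.8 and 48.4 TPM in KO livers). *Reln* was also higher in both KO libraries, while *Lrat*, *Col1a1* and *Col3a1* overlapped. The cholangiocyte sum came mostly from *Spp1* (13.2 and 12.7 TPM in WT livers against 33.4 and 20.7 TPM in KO livers). *Krt19* was also higher in both, while *Krt7*, *Epcam* and *Sox9* overlapped, *Krt7* with a lower KO mean. The part of these cells in the results was not tested. Of the 5 pancreatic acinar markers, 4 were at 0 throughout and the sum was at most 1.22 TPM. The enterocyte sum (70.7 to 99.4 TPM) overlapped and came almost wholly from *Apoa4* and *Fabp2*, which liver also expresses.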

How the data were processed

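Liver RNA-seq libraries of 2 WT and 2 *Usp21* KO mice were grouped by their labels, 1 library per mouse. The authors quantified reads with salmon on a transcriptome named mm10 and deposited TPM per gene. A log2(TPM + 1) table deposited by the authors holds the same values and was not used in tests, nor was the log2 table of the CPM values. The authors also deposited HTSeq gene counts scaled by the TMM method of edgeR, a count-based signal whose low values are whole multiples of 1 read in each library. This gave between 102898 and 148164 recovered reads per library, with 100% of values whole within 0.02 reads. That table listed 428 of the 682 genes that reached 100 TPM in all livers at 0 throughout. TPM had been planned as the main measure and this table as an alternative. The tools and the build are those of the submitters' processing notes, which also name Partek and deepTools. Their versions, the aligner, the annotation release and the strand setting were not given in the sources used here. TPM keeps no record of depth.

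The 9581 genes that averaged 1 TPM or more were fitted with limma 3.58.1 in R 4.3.3 (lmFit, eBayes with trend, prior degrees of freedom 3.62), two-sided, with Benjamini-Hochberg adjustment, on log2(TPM + 1), which understates changes of low genes. Sums, shares and ratios of members were compared by exact permutation. Scripts were tested on simulated data. Alternatives were pseudocounts of 0.1 and 5, no filter (genes above 0 in any library), a mean of at least 5 TPM, upper quartile scaling, no moderation, the TMM-scaled CPM, edgeR 4.0.16 and DESeq2 1.42.0 on recovered reads (the edgeR quasi-likelihood test), and each library left out. Positions came from GENCODE M21 (GRCm38, the build of mm10), promoters from RefSeq (GRCm38.p6, 11 windows for 7 of the 10 members). *G6pc* and *Arntl* were matched by Ensembl identifier. All 10 members were named, and each list by its 2 highest and 2 lowest log2 fold changes, other genes of the lists being named after their values were seen. The members and lists were chosen with earlier results of these data known. No per-sample column lacked a sample (0 left out).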

Additional observations from a re-analysis of the deposited data

How the results depend on the processing

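No paired analysis was possible because the labels do not say which mice shared a litter. In the alternatives that refitted all 4 TPM libraries, 0 of the 8 tested members had a limma adjusted p under 0.05. Few of all tested genes did, from 0 with no moderation to 9 with a pseudocount of 0.1. The CPM values and recovered reads gave a fit for only 2 members, *Gpam* and *Agpat2*, and neither reached it. *Lpin1*, *Lpin2* and *Dgat2* kept their direction wherever a value was obtained, and so did *Gpam*. The summed lipin TPM stayed between 1.67 and 2.69 times the WT mean, and the share of *Lpin1* in it between 15.3 and 26.0 percentage points higher in KO. With 1 library left out, the number of members with non-overlapping groups was 5 to 7 instead of 3, since 1 group then had a single library. In the CPM table it was 0. The share of all genes was not computed for these settings, so these counts are not a result about the members. With upper quartile scaling the number was 4, where 24.5% of all genes lay higher and 18.6% lower in KO without overlap. With single libraries left out, log2 fold changes crossed 0 for *Gpat4* (-0.26 to 0.091, above 0 without WT replicate 2 and, at 0.08, without KO replicate 1), *Agpat2* (-0.13 to 0.055, above 0 without KO replicate 3), *Agpat3* (-0.48 to 0.051, above 0 without KO replicate 1 and, at 0.04, without WT replicate 2), *Lpin3* (-0.49 to 0.0058, above 0 without WT replicate 2), *Mogat1* (-0.46 to 0.18, above 0 without WT replicate 2 and, at 0.09, without KO replicate 1) and *Dgat1* (-0.53 to 0.0088, above 0 without WT replicate 3). In the CPM values, 8 of the 10 members were at 0 in every library. *Agpat2* had 2 reads in KO replicate 1 and *Gpam* 1 read in WT replicate 3, under the limit of 3 reads that a count of 0 allows. The log2 fold changes of *Agpat2* there (1.92 in limma, 3.10 in edgeR, 2.12 in DESeq2) rest on those 2 reads. The depth of the TPM values is unknown, which leaves *Lpin3* and *Mogat1* without a stated precision beyond the spread between mice.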

Other observations

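The branch from phosphatidic acid and diacylglycerol to phospholipids had 7 of 10 tested genes higher in KO and a median log2 fold change of 0.15, the same as over all tested genes, of which 66.7% were higher. *Chka*, the choline kinase that opens phosphatidylcholine synthesis, stood at 3.52 and 4.71 TPM in WT livers and at 32.4 and 10.5 TPM in KO livers (1.94 ± 0.51 SE on the log2 scale, limma adjusted p = 0.464). *Selenoi*, which makes phosphatidylethanolamine from diacylglycerol, showed 5.27 and 3.80 TPM for WT and 7.96 and 8.14 TPM for KO (0.72). *Pemt*, which methylates phosphatidylethanolamine, had the lowest log2 fold change (-0.35) and measured 311 and 281 TPM in the WT livers against 235 and 229 TPM in the KO livers. The next lowest was *Pcyt1a* (-0.26), an enzyme that makes CDP-choline, with overlapping groups. Of the 7 tested genes of triglyceride breakdown, 6 were higher in KO with a median of 0.21. The 1 lower gene was *Lipe*, which encodes hormone-sensitive lipase, at 3.25 and 3.11 TPM in WT livers against 2.55 and 1.59 TPM in KO livers (-0.46 ± 0.27 SE on the log2 scale, limma adjusted p = 0.555), and these groups did not overlap. *G0s2*, an inhibitor of the lipase ATGL, stood at 27.8 and 46.5 TPM in WT livers and at 51.8 and 174 TPM in KO livers (1.38), and *Abhd5*, an activator of the same lipase, at 9.92 and 11.4 TPM in WT livers against 14.3 and 18.1 TPM in KO livers (0.56). *Pnpla2*, which encodes that lipase, had a log2 fold change of 0.06 with overlapping groups, and *Pnpla3* was listed at 0 in every library.

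The genes whose pattern over the 4 libraries was closest to that of *Lpin1*, by root mean square distance of centred log2(TPM + 1) among the 4024 genes that averaged 10 TPM or more, were *Hsph1* (0.153), *Rsrp1* (0.155), *Nfil3* (0.169), *Hspa8* (0.171) and *Chordc1* (0.247). In *Hspa8*, which encodes a constitutive heat shock protein, WT replicate 2 was the lowest and KO replicate 3 the highest (382, 718, 1299 and 1569 TPM in WT replicates 2 and 3 and KO replicates 1 and 3). The points share their libraries, and with 4 of them this is a description of likeness and not a test.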
